A study of Mus musculus with 6 samples.

Results

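The less abundant nuclear tRNAs of the mouse duodenum were examined here. They were taken as the features that fell at rank 51 or below when all nuclear tRNA features in the table were ordered by abundance. For this ordering, the count of each feature was divided by the summed count of all nuclear tRNA features in each library, and the 6 shares were averaged. The less abundant features numbered 137 of 187 nuclear tRNA features and of 1929 short transcripts in all. Since the ordering used the measured values, the levels of these features are given as a description and carry no test. The ordering used all 6 libraries alike and did not use the difference between genotypes.

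Short RNAs of the superior duodenum, at the start of the small intestine, were sequenced in female mice after a night without food. Wild-type mice (C57Bl/6N, 3 libraries) were compared with mice heterozygous for a mutant allele of Polr3b on the same background (C57BL/6N-Polr3b<em7(IMPC)Tcp>/Tcp, 3 libraries). The allele carries a small insertion predicted to shift the reading frame. It is present in every cell of the animal. RNA came from homogenised tissue, so fewer cells of a type and less RNA per cell cannot be told apart. The wild-type and the heterozygous mice were bred from different parents, so genotype and litter cannot be told apart either. The question was whether a partial loss of Pol III changes the level of tRNAs.

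RNA polymerase III (Pol III) makes nuclear tRNAs, 5S rRNA and several further short noncoding RNAs, and Polr3b encodes one of its core subunits. A tRNA gene is read from promoter elements that lie inside the transcribed part, which the factor TFIIIC binds before TFIIIB recruits the polymerase. Mammalian genomes carry many tRNA genes for each anticodon. Some of their transcripts are identical, and others (isodecoders) share the anticodon and differ elsewhere in the body. Copies of a family differ widely in how much they are transcribed, and a tissue draws most of its tRNA from a part of them. The files do not pair the identifiers of these features with an isotype, an anticodon or a sequence, so features are called here by their rank, and neither their anticodons nor their sequences were analysed here.

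The nuclear tRNA features held from 493485 to 1071908 counts in the wild-type libraries and from 998870 to 3361617 in the heterozygous ones. The table heads the columns of the heterozygous libraries with the name of another Pol III subunit. They were taken as heterozygous since no other group remained, and they carry numbers by column order alone. No pair of libraries held identical values. Wild-type replicate 1, the shallowest library, stood apart. After DESeq2 scaling by median-of-ratios size factors, it lay above the mean of the other wild-type replicates in 79 of the 93 less abundant tRNA features with a mean normalised count of at least 10, by a median of 1.89 on the log2(normalised count + 0.5) scale. The same median was 1.24 when counts were scaled to the library total and 0.97 when they were scaled to the nuclear tRNA total. The 50 most abundant tRNA features showed a median of 1.34 after DESeq2 scaling. Each other library, set against the other libraries of its genotype in the same way, differed by a median of -1.17 to 0.39. One transcript that matched no name in the annotation used held 47.5% of the total count in wild-type replicate 1 and from 21.1% to 37.7% in the others, and its part in this shift was not tested. Calls, summed shares and spreads are therefore given with and without wild-type replicate 1. Hairpins of 9 microRNAs known from intestinal epithelium, such as Mir192 and Mir194-1, were all found by name. They summed to 5.23 to 37.3 counts in 1000000 for wild type and 9.24 to 15.9 in heterozygotes. The lowest sum was that of wild-type replicate 1, where Mir194-2, Mir215, Mir200a, Mir200b and Mir429 had 0 counts. The 2 pancreatic hairpins found, Mir216a and Mir217, summed to at most 1.16 counts in 1000000 for wild type and were at 0 in heterozygotes. The 2 leukocyte hairpins found, Mir142 and Mir223, summed to 0.808 to 4.17 for wild type and 0.325 to 3.38 in heterozygotes. The 2 endocrine ones, Mir375 and Mir7-1, summed to 1.08 to 2.70 and 0.564 to 1.13.

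**Figure D1:**
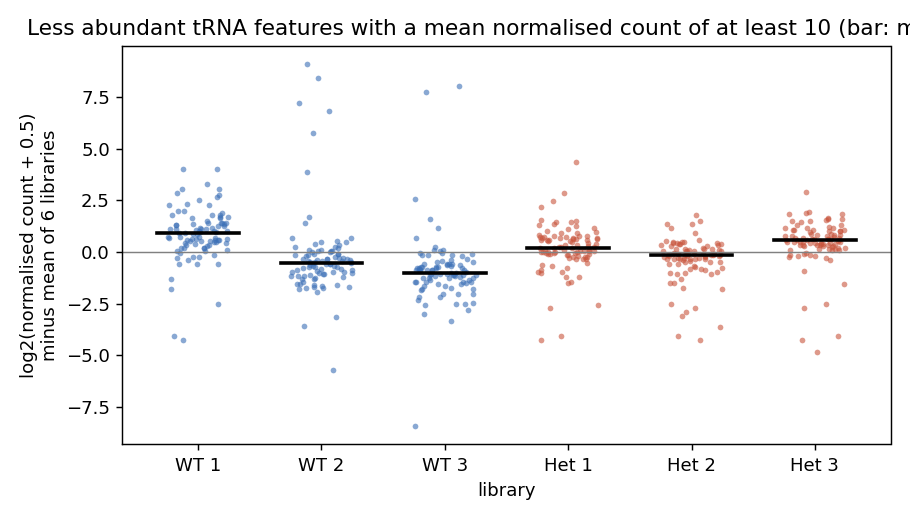
Deviation of the less abundant tRNA features from their own mean, by library (WT, wild type; Het, heterozygous). The vertical axis gives log2(normalised count + 0.5) minus the mean over the 6 libraries, each point is 1 of the 93 features with a mean normalised count of at least 10, and black bars are medians. The cloud of wild-type replicate 1 sits above those of wild-type replicates 2 and 3, and single features of wild-type replicates 2 and 3 stand far above the rest.

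The less abundant features made up a small part of the nuclear tRNA pool, although they were most of its features. Their mean shares summed to 8.48% of the nuclear tRNA counts, less than the 10.1% held by the most abundant feature alone. Single features ranged from 0.375% of the pool at rank 51 to 5.44e-06% at ranks 186 and 187, with a median of 0.00708%. The 14 highest of them held 50% of this sum and 43 held 90%. A share of at least 0.1% was reached by 30 features, while 48 lay under 0.001%.

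The list has no natural edge. The mean shares just outside it were 0.453%, 0.420% and 0.415% at ranks 48 to 50. Just inside they were 0.375%, 0.358% and 0.355% at ranks 51 to 53. The feature at rank 50 was 1.11 times as abundant as that at rank 51. When each library in turn was left out and the features were ranked again, at least 136 of the 137 remained in the list.

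**Figure D2:**
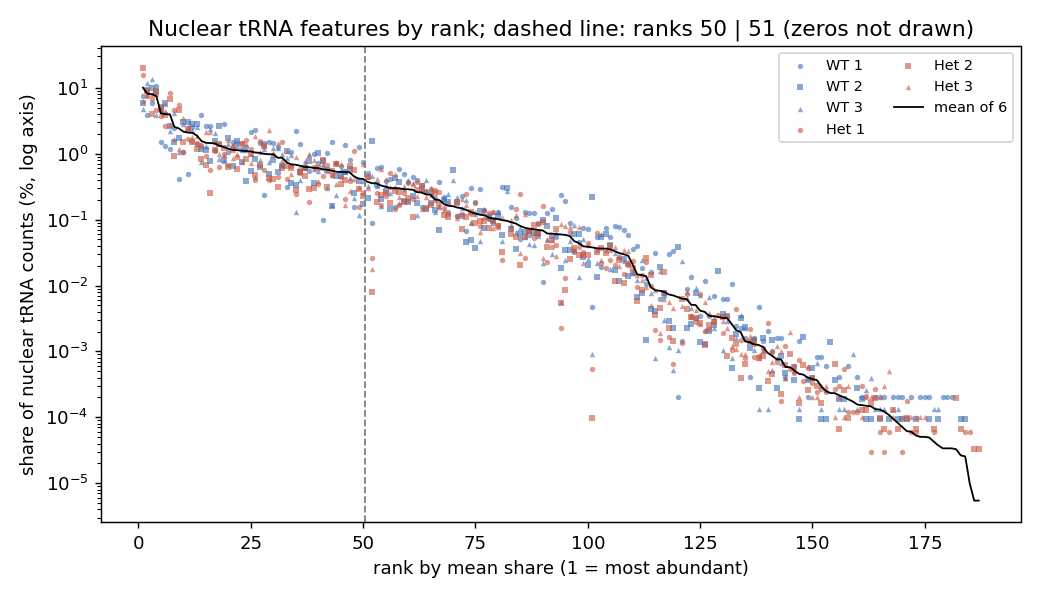
Share of each nuclear tRNA feature in the nuclear tRNA counts of a library (percent, log axis) against its rank by mean share. Points are libraries (WT, wild type; Het, heterozygous), the black line is the mean of the 6 libraries, the dashed line separates ranks 50 and 51, and counts of 0 are not drawn. Around rank 52, and again around ranks 94 to 101 and 120, single libraries lie far from the mean.

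Most of the features were detected throughout. Of the 137, 92 had at least 1 count in all 6 libraries, 20 in 4 or 5, 17 in 2 or 3 and 8 in 1 library. All of the 50 most abundant features had counts in every library. Detection in all 6 libraries held for 29 of 30 features at ranks 51 to 80, 27 of 30 at ranks 81 to 110, 26 of 30 at ranks 111 to 140 and 10 of 47 at ranks 141 to 187. At the lower end, 19 features never exceeded 3 counts in any library, so their presence could not be told from a few stray reads. A count of 0 still allowed a share of the nuclear tRNA counts of up to 0.000608% in wild-type replicate 1, against 8.92e-05% where depth was greatest, for counting error only.

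The number of features with at least 1 count was close between the genotypes. Wild-type replicates 1 to 3 showed 115, 117 and 112, against 120, 116 and 113 for heterozygous libraries 1 to 3. The wild-type mean was 114.7 ± 2.52 and the heterozygous mean 116.3 ± 3.51 (SD, n = 3), a difference smaller than the SD within either genotype. With over 3 counts there were 91, 96 and 92 features in the wild-type libraries, against 110, 104 and 93 in the heterozygous ones. With at least 10 counts there were 81, 89 and 77, against 99, 92 and 84. At both limits the mean was 9.33 higher in heterozygotes, whose libraries held more nuclear tRNA counts on average, and the genotypes overlapped. When every library was thinned to the 493485 nuclear tRNA counts of the shallowest, the expected number with at least 1 count was 115 in wild-type replicate 1, 107.2 and 106.6 in wild-type replicates 2 and 3, and 107.2, 102.6 and 105.9 in heterozygous libraries 1 to 3. At equal depth wild-type replicate 1 was therefore the highest and the other libraries overlapped between the genotypes. Features with counts in only 1 genotype were few, 9 in wild type and 5 in heterozygotes, and 123 had counts in both.

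Of the 137 features, 103 received an adjusted p-value in the DESeq2 test. At a false discovery rate of 10%, 4 of these were called, 1 higher and 3 lower in heterozygotes. Over all 734 transcripts with an adjusted p-value, 2.32% were called in either direction, 0.954% higher and 1.36% lower. Cook's filtering left 6 of the features without a p-value, and a low mean left 28 without an adjusted one. The quasi-likelihood test of edgeR called 0 of the 86 features that passed its filter, against 0% over all transcripts, and its smallest adjusted p-value among them was 0.991. DESeq2 gave 7 of 131 features an unadjusted p-value under 0.05, 3 higher and 4 lower, where 2.75% of all transcripts had one, 1.27% higher and 1.48% lower. edgeR had 4 of 86 at that level, with 3.29% over all.

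The feature at rank 52, called lower, had counts in every library. Wild-type replicates 1 to 3 held 1321, 14447.5 and 2942 normalised counts, against 425.2, 112.6 and 332.5 for heterozygous libraries 1 to 3. As a share of the nuclear tRNA pool wild type held 0.0902%, 1.54% and 0.464%, against 0.0264%, 0.00806% and 0.0179% for heterozygotes. Every wild-type library lay above every heterozygous one, and wild-type replicate 2 alone held 73.8% of the summed normalised count. The DESeq2 log2 fold change was -4.43 (SE 1.08, adjusted p = 0.00416). It was called under 13 of 16 alternatives, with adjusted p-values from 8.01e-06 to 0.991. The call was lost in edgeR, without wild-type replicate 2 (log2 fold change -2.86, DESeq2 adjusted p = 0.112) and without heterozygous library 2 (log2 fold change -4.04, DESeq2 adjusted p = 0.184).

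The features at ranks 70 and 82, also called lower, had counts in wild-type replicates 2 and 3 and nowhere else. URS000038D8D3_10090 (rank 70) had normalised counts of 5297 and 2512 there, or 0.565% and 0.396% of the nuclear tRNA counts. URS000037D0FB_10090 (rank 82) had 2845 and 1733, or 0.303% and 0.273%. Both had 0 counts in wild-type replicate 1 and in each heterozygous library, so the genotypes overlapped at 0 and the range within wild type spanned the whole difference. Against a floor of 3 counts in each heterozygous library, rank 70 was at least 932-fold lower and rank 82 at least 546-fold lower in heterozygotes (DESeq2 adjusted p = 0.000509 and 8e-04). Without wild-type replicate 2 these bounds were 449.7-fold and 310.3-fold, and without heterozygous library 3 they were 1855-fold and 1087-fold. Without wild-type replicate 1 they were 1398-fold and 819.7-fold. Both calls were made under all 14 alternatives in which the features were tested, with DESeq2 adjusted p-values of at most 0.00806 and 0.0314. Neither passed the filter of edgeR or that of at least 10 counts in at least 3 libraries. In the whole table only 1 other transcript had this pattern, 0 in those 4 libraries and at least 100 counts in both others, and it matched no name in the annotation used.

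The feature called higher, URS0000683CF7_10090 (rank 145), was a rare one. It had 0 counts in each wild-type library and 18, 28 and 20 counts in heterozygous libraries 1 to 3, which were 8.64, 12.8 and 37.1 after normalisation. These amounted to 0.000535%, 0.000914% and 0.0020% of the nuclear tRNA pool. All counts were thus in heterozygous libraries, but a 0 in wild-type replicate 1 allows up to 8.90 normalised counts, so the genotypes were not separated at this depth. Against a floor of 3 counts in each wild-type library the feature was at least 4.17-fold higher (DESeq2 adjusted p = 0.0136). That bound was 2.29-fold without heterozygous library 3 and 7.62-fold without wild-type replicate 1. The call was lost in 4 of 15 alternatives, without wild-type replicate 2 or 3 or without heterozygous library 2 or 3, and DESeq2 adjusted p-values ranged from 0.00733 to 0.349.

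The features next in order of p-value had counts in every library and did not pass the threshold. At rank 73, wild-type libraries held 976.6, 432.1 and 1273 normalised counts, against 4018, 1541 and 3111 for heterozygotes (log2 fold change 1.69, SE 0.70, DESeq2 adjusted p = 0.421). At rank 136 they held 5.94, 10.5 and 9.17, against 35.5, 19.6 and 31.6 (log2 fold change 1.68, SE 0.68, DESeq2 adjusted p = 0.42). At rank 116 they held 92.0, 177.6 and 106.7, against 24.0, 64.3 and 35.3 (log2 fold change -1.61, SE 0.66, DESeq2 adjusted p = 0.421). In all 3 the genotypes did not overlap after DESeq2 scaling. As shares of the nuclear tRNA pool, rank 116 still did not overlap, while ranks 73 and 136 did. None was called under any of 16 alternatives, in which their adjusted p-values were at least 0.188, 0.272 and 0.134 for ranks 73, 136 and 116.

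**Figure D3:**
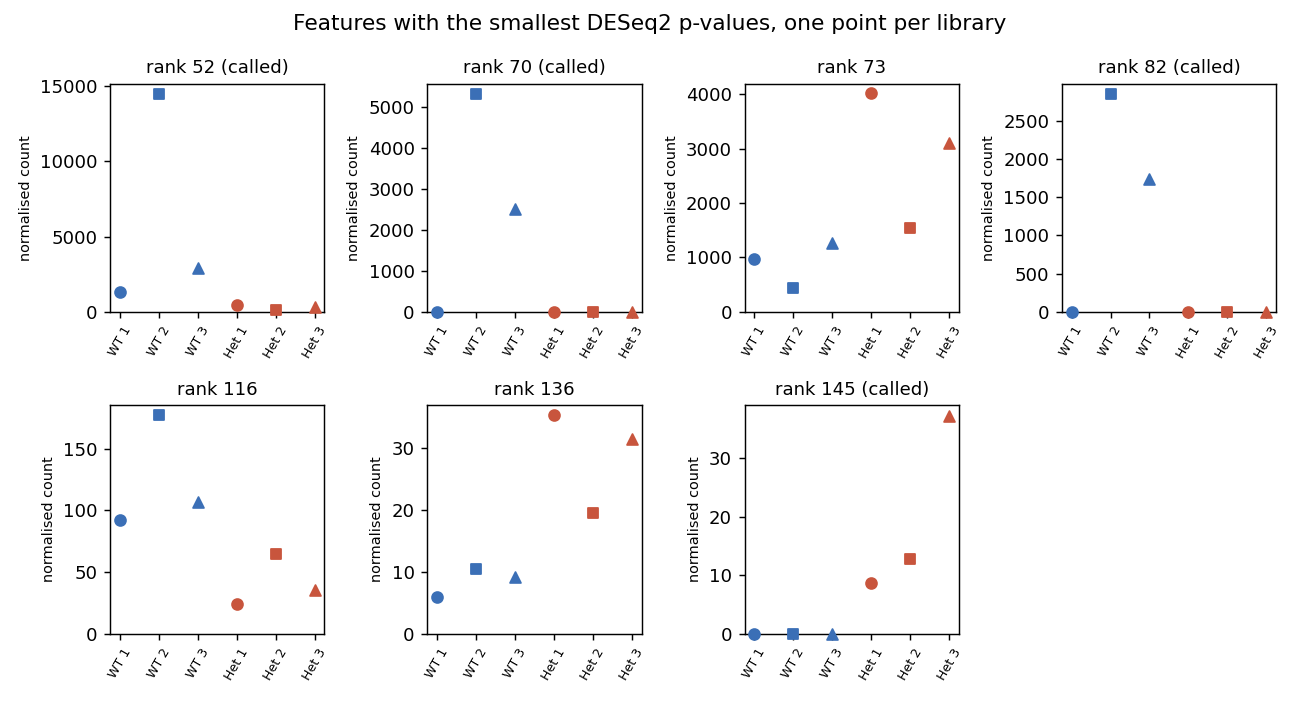
Normalised counts (DESeq2 size factors, linear axes from 0) of the 4 called features and of the 3 with the next smallest p-values among those with counts in every library. Each point is 1 library, blue for wild type (WT) and red for heterozygous (Het). Wild-type replicate 2 is the highest point at ranks 52, 70 and 82, and rank 145 has points above 0 in the heterozygous libraries only.

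**Figure D4:**
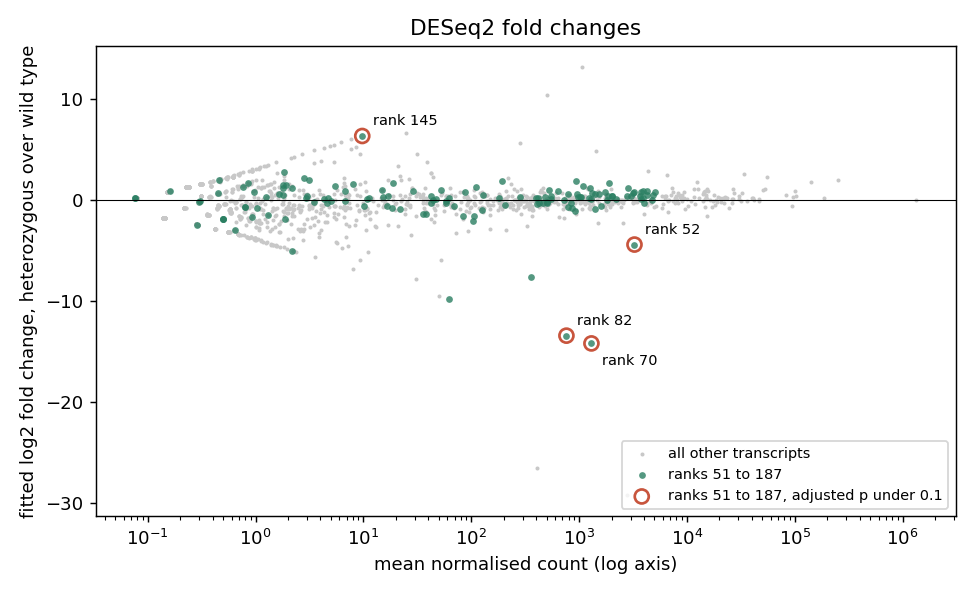
DESeq2 log2 fold change (heterozygous over wild type) against mean normalised count (log axis) for all transcripts in grey and the less abundant tRNA features in green, with the 4 called features circled. Fold changes of features at 0 in a genotype, such as ranks 70, 82 and 145, depend on the fit and are not sizes of effect. The green points lowest without a circle are ranks 120 and 101, which received no p-value, and most of the others lie near 0.

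The features as a whole were centred near 0. The median DESeq2 log2 fold change over the 137 was 0.20, with 86 above 0 and 51 below, and the median over all transcripts was -0.13. For the 50 most abundant tRNA features it was 0.43. By rank, the median was 0.42 at ranks 51 to 80, 0.16 at ranks 81 to 110, -0.06 at ranks 111 to 140 and 0.17 at ranks 141 to 187. With the library total as the scaling, the median was -0.02 for the less abundant features and -0.45 over all transcripts. The less abundant features thus lay above the median of all transcripts under both scalings, while the sign of their own median turned. Without wild-type replicate 1 the median was 1.19, with -0.01 over all transcripts. Without wild-type replicate 3 it was -0.12, with -0.11 over all transcripts. These medians were nearly equal, and the less abundant features no longer lay above.

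Leaving out wild-type replicate 1 changed the number of calls among the less abundant features more than leaving out any other library did. DESeq2 then called 23 of the 112 features with an adjusted p-value, 18 higher and 5 lower in heterozygotes. Over all transcripts in that fit, 6.98% were called, 5.58% higher and 1.4% lower. Of the 18 higher calls only rank 145 was also called with all libraries, and in the other 17 wild-type replicate 1 had been the highest wild-type library. Apart from ranks 140 and 145, which had at most 1 count in either remaining wild-type library, their log2 fold changes ranged from 1.39 to 2.66. The most abundant of them, rank 51, showed normalised counts of 7427, 1975 and 2087 for wild-type replicates 1 to 3, against 7273, 6229 and 5665 for heterozygous libraries 1 to 3. Its log2 fold change was 0.74 (SE 0.74, not called) with all libraries and 1.67 (SE 0.38, DESeq2 adjusted p = 0.000592) without wild-type replicate 1. Rank 102 showed 789.6, 127.7 and 140.9, against 1022, 451.2 and 653.8, and the log2 fold change went from 1.01 (SE 0.95) to 2.42 (SE 0.57, DESeq2 adjusted p = 0.00113). Without the replicate, wild type and heterozygotes did not overlap at either rank. With it, both overlapped. The 5 lower calls included ranks 52, 70 and 82.

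Normalised counts did not overlap between the genotypes in 16 of the 137 features, 13 higher and 3 lower in heterozygotes, where 4.77% of all transcripts did not overlap, 2.07% higher and 2.7% lower. A mean raw count of at least 10 was reached by 93 features. These are not quite the 93 taken by normalised count, since they include ranks 144 and 145. Among them 12 did not overlap, 9 higher and 3 lower. Over all transcripts at that level it was 9.42%, 4.15% higher and 5.27% lower. With counts under 3 in the lower genotype set to 3, 9 of the 137 stayed apart, 7 higher and 2 lower, with 3.16% over all transcripts, 1.24% higher and 1.92% lower. The direction turned with the scaling. Scaled to the library total, 5 were higher and 6 lower, with 4.3% over all transcripts, 1.09% higher and 3.21% lower. Scaled to the nuclear tRNA total, 1 was higher and 11 were lower, with 9.09% over all nuclear tRNA features, 1.6% higher and 7.49% lower. Without wild-type replicate 1, DESeq2 scaling gave 57 higher and 6 lower, with 16.4% over all transcripts, 6.79% higher and 9.64% lower.

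Ranks 52 and 116 were lower in heterozygotes without overlap under all 3 scalings, also with counts under 3 set to 3. The share of all nuclear tRNA features that did so is not given here, so this is a description. Rank 145, higher, and rank 120, lower, did not overlap as deposited under these scalings. At the floor of 3 counts rank 120 overlapped under each of them, and rank 145 under all but that to the library total. Rank 120 rested on few reads outside wild-type replicate 2, where the raw counts were 1, 416 and 8 over the wild-type libraries, against 0 for each heterozygous one. Its p-value was removed by Cook's filtering, and against a floor of 3 counts in each heterozygous library it was at least 44.6-fold lower, or 1.73-fold without wild-type replicate 2. Rank 116 had counts in every library, and its shares of the nuclear tRNA pool were 0.00628%, 0.0189% and 0.0168% for wild type, against 0.00149%, 0.0046% and 0.0019% for heterozygotes.

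The summed share of the less abundant features in the nuclear tRNA pool was lower in heterozygotes. It came to 11.4%, 9.1% and 8.56% for wild-type replicates 1 to 3, against 7.77%, 6.13% and 7.94% for heterozygous libraries 1 to 3. The wild-type mean was 9.68% ± 1.5 and the heterozygous mean 7.28% ± 0.998 (SD, n = 3), a difference of -2.4 percentage points or -0.41 on the log2 scale, and the genotypes did not overlap. Wilson 95% intervals of the single shares reached at most 0.0889 percentage points to either side, which covers counting error only and is far under the spread between libraries. The difference is a description of a list chosen by these shares and carries no p-value. Without wild-type replicate 1 the log2 difference was -0.28, and -0.10 when the features were also ranked again. Of the library total, the same features made up 3.26%, 2.39% and 1.76% for wild type, against 2.94%, 1.92% and 2.58% for heterozygotes, so that both genotypes overlapped and the means differed by 0.0068 on the log2 scale. Their summed normalised counts were higher on average in heterozygotes, by 0.23 on the log2 scale, and overlapped as well.

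The separation of the shares also rested on a few features. Without rank 52, wild-type shares were 11.3%, 7.55% and 8.1%, against 7.74%, 6.12% and 7.92%, with overlap. Shares also overlapped without the 3 features called lower and with the most abundant tRNA feature taken out of the denominator. The log2 difference in these was -0.31, -0.22 and -0.29. With the list cut at rank 41 the shares were 19.7%, 13.5% and 12.2% for wild type, against 12.7%, 11.005% and 12.5%, and the genotypes overlapped there as well. With the cut at rank 61, wild-type shares of 7.12%, 5.2% and 5.51% overlapped with 5.21%, 3.89% and 4.65%. The log2 differences were -0.33 and -0.37. By rank, the share did not overlap at ranks 51 to 80, where the wild-type mean was 7.49% ± 0.759 and the heterozygous one 5.8% ± 0.763 (SD, n = 3). Nor did it overlap at ranks 111 to 140, with 0.199% ± 0.0753 and 0.122% ± 0.00299. It overlapped at ranks 81 to 110, with 1.98% ± 0.678 and 1.35% ± 0.235, and at ranks 141 to 187. Both separations also rested on single features in wild-type replicate 2, without which the genotypes would overlap. There, rank 52 held 1.54% of the 7.08% at ranks 51 to 80, where heterozygous library 3 reached 6.29%. Rank 120 held 0.0388% of the 0.151% at ranks 111 to 140, where heterozygous library 1 reached 0.124%.

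**Figure D5:**
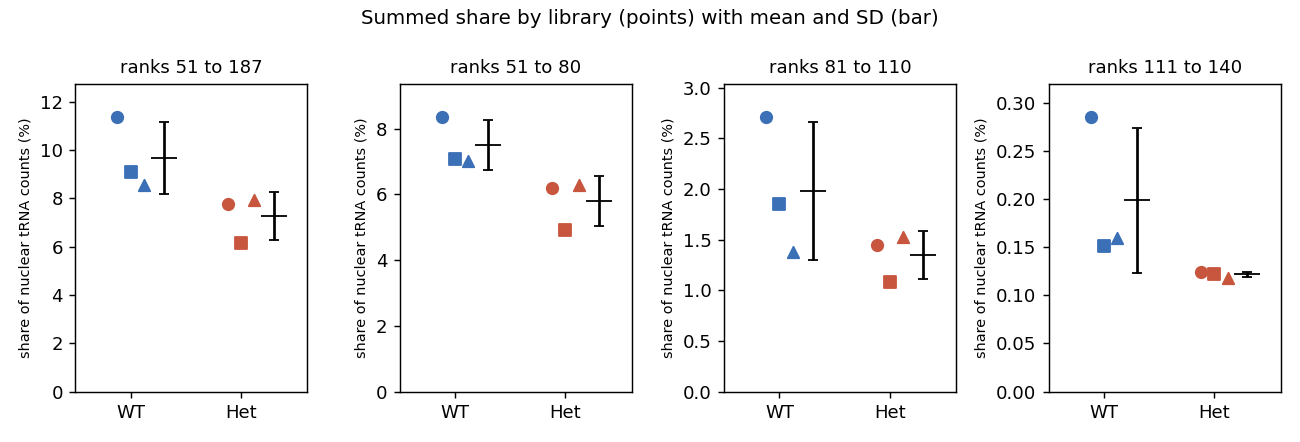
Summed share of the nuclear tRNA counts (percent, axes from 0) held by ranks 51 to 187, 51 to 80, 81 to 110 and 111 to 140. Points are libraries, blue for wild type (WT) and red for heterozygous (Het), with the mean and SD beside them. Wild-type replicate 1 (circle) is the highest in each panel, and the genotypes overlap at ranks 81 to 110.

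Levels of single features varied widely between libraries. Over the 93 features with a mean normalised count of at least 10, the median coefficient of variation over the 6 libraries was 66.1%, or 62.3% without wild-type replicate 1, and it was 60.7% for the 50 most abundant features. Wild-type replicates 2 and 3 differed by a median of 0.74 on the log2(normalised count + 0.5) scale, within the 0.56 to 0.87 found between pairs of heterozygous libraries. Wild-type replicate 1 differed from them by medians of 1.79 and 2.11, and it was the highest wild-type library in 75 of the 93.

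The steadiest feature was rank 97, with a coefficient of variation of 12.1%. Wild-type libraries held 469.0, 576.4 and 525.3 normalised counts and heterozygous ones 543.7, 517.8 and 664.9, which overlapped (log2 fold change 0.13, SE 0.35). Rank 71 followed at 20.0%, with 1662, 1719 and 1402 against 1841, 2499 and 1946, which did not overlap (log2 fold change 0.39, SE 0.36, not called). Rank 103 came next at 23.4%, with 276.0, 513.5 and 386.9 against 349.8, 526.0 and 456.9, which overlapped.

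A single library held over 50% of the summed normalised count in 15 of the 93 features, against 2 of the 50 most abundant. That library was wild-type replicate 1 in 8, wild-type replicate 2 in 6 and heterozygous library 1 in 1. The 8 features led by wild-type replicate 1 lay between ranks 81 and 138, and in 7 of them heterozygous library 3 came second. Rank 94, for example, showed normalised counts of 3526, 172.3 and 35.9 over the wild-type libraries, against 36.5, 76.6 and 1608 over the heterozygous ones. Rank 95 showed 2808, 326.3 and 153.4, against 211.6, 119.4 and 1490. Each genotype thus held 1 high library and 2 low ones. Wild-type replicate 1 and heterozygous library 3 were the 2 highest libraries in 41 of the 93 features. They also had the smallest size factors, 0.337 and 0.538, against 1.14 to 2.19 in the others. The median shift of heterozygous library 3 against the others of its genotype was 0.39 after DESeq2 scaling and 0 with the library total. For wild-type replicate 1 these were 1.89 and 1.24. The part of the scaling in this pattern was not tested. Rank 85 stood out in heterozygous library 1, at 3893 against 290.8 to 745.0 in the others.

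Features that were at 0 in a library and at 100 or more counts in another numbered 7, of the 78 with at least 100 counts in some library. None of the 50 most abundant features had this pattern, and 69 of 537 transcripts in the whole table did. These were ranks 70, 82, 101, 104, 120, 121 and 129, and in all but ranks 101 and 120 the pattern occurred among the wild-type libraries. Rank 101 had raw counts of 23, 2374 and 7 over the wild-type libraries, against 18, 3 and 0 over the heterozygous ones, so that wild-type replicate 2 held 96.1% of its summed normalised count. Rank 104 had 364, 645 and 0, against 613, 962 and 349, and only wild-type replicate 3 lacked it. Rank 121 had 7, 0 and 182, against 45, 193 and 49. Rank 129 was found in 1 library of each genotype, with 176 counts in wild-type replicate 2 and 121 in heterozygous library 1. The counts are estimates that divide reads among similar sequences, so levels of near-identical features are uncertain.

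The order of the less abundant features was similar between libraries. Over the 137, Spearman's rho between a pair of libraries was 0.943 to 0.955 within heterozygotes, 0.813 to 0.892 within wild type and 0.795 to 0.953 between genotypes. Wild-type replicate 1 was closer in order to each heterozygous library (0.915, 0.917 and 0.953) than to wild-type replicates 2 and 3 (0.813 and 0.845). Wild-type replicates 2 and 3 had a rho of 0.892 with each other, and of 0.795 to 0.856 with the heterozygous libraries. The cause was not tested. These are correlations across features, which are not independent replicates, and they span a wide range of abundance. Over the 50 most abundant features, rho ranged from 0.244 to 0.835.

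Of the other products of Pol III, 11 of 18 5S rRNAs and 3 of 4 further named Pol III RNAs received an adjusted p-value. A DESeq2 p-value was given to 13 of the 5S rRNAs. The further RNAs were sought by gene name, so any among the 386 transcripts without a match were not assessed. DESeq2 called 0 of them, and 0 had an unadjusted p-value under 0.05. The 22 mitochondrial tRNAs, products of another polymerase, gave 0 calls and 0 at that level too, and edgeR called 0 in each of these lists. Without heterozygous library 3, DESeq2 called 7 of 16 5S rRNAs, all lower in heterozygotes, where 7.74% of all transcripts were called, 6.14% lower. Without heterozygous library 1 it called 1 of the further named RNAs, lower. Median log2 fold changes were -1.06 for 5S rRNAs, 0.10 for mitochondrial tRNAs and 0.05 for the further named RNAs. Among the 50 most abundant tRNA features, 3 of 49 were called, all higher.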

How the data were processed

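Short RNA was isolated by size and demethylated before sequencing. Reads were trimmed with Cutadapt. Salmon quantified them on mouse transcripts (GRCm39), and tximport collected the short ones. The values the authors deposited are estimated counts, in whole numbers for each library, neither scaled nor pooled.

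Genotypes of the wild-type columns came from the labels, and the other columns were taken as heterozygous since no other group remained. Nuclear tRNAs were the features with an RNAcentral identifier. Other names came from GENCODE vM21, where 386 transcripts found no match. 5S rRNAs were annotated rRNAs of 100 to 130 bases.

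The test was the DESeq2 (1.42.0) Wald test over all transcripts by genotype, with default filters and size factors from median ratios, at an adjusted p-value under 0.1. The alternative was edgeR (4.0.16, quasi-likelihood), in R 4.3.3. Both were also run on simulated data with known changes. How often edgeR would call a change at the spread of these features is not given here. The labels say no more of replicates than that they are separate samples, so p-values measure the spread between these samples.

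The features, lists and rules were chosen with earlier results of these data known. Named were the called features, the ranks around the limit, features with counts in every library at an unadjusted p under 0.05, the 6 with the highest count among those at 0 in a library, and the 3 with the lowest variation. Ranks 85, 94, 95, 102 and 129, and the change at rank 51, were described after their values were seen.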

Additional observations from a re-analysis of the deposited data

How the results depend on the processing

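The number of called less abundant tRNA features was 4. It was 0 with edgeR, 2 with a filter of at least 10 counts in at least 3 libraries and from 2 to 23 when a library was left out, with 23 without wild-type replicate 1 and 2 without heterozygous library 2. Under the other 14 alternatives it stayed within 1.5 times. Over all transcripts the count of 17 became 0 with edgeR, 7 with that filter and 7 to 68 with a library left out. Among the 50 most abundant tRNA features the count of 3 became 0 with edgeR, 0 with the library total and 1 to 11 with a library left out, with 11 without wild-type replicate 1. Among 5S rRNAs, other Pol III RNAs and mitochondrial tRNAs the count of 0 became 0 to 7 with a library left out, with 7 without heterozygous library 3. The median log2 fold change of the less abundant features ranged from -0.12 to 1.19 with a library left out. The log2 difference of their summed share (-0.41) was 0.0068 over the library total, 0.18 over transcripts that are not nuclear tRNAs and 0.23 as summed normalised counts. With a library left out it ranged from -0.49 to -0.28, and from -0.49 to -0.10 when the features were ranked again. Heterozygotes had 1.67 more features detected on average, and 9.33 more at either over 3 or at least 10 counts. Features without overlap numbered 9 with counts under 3 set to 3, with 3.16% over all transcripts. With a library left out they numbered 19 to 63, with 63 without wild-type replicate 1. Fewer libraries make overlap rarer in any list, and over all transcripts the share without overlap rose from 4.77% to 16.4% without wild-type replicate 1. It was not computed for the other libraries left out. Less abundant features at 0 in a library and high in another numbered 15 at 10 counts, 3 at 1000 counts and 4 to 7 with a library left out, with 4 without wild-type replicate 2. Of 107 values for the 7 features with the smallest p-values under alternatives, 100 kept their side of the threshold, 7 lost it and 0 reversed. For ranks 73, 116 and 136, with 16 values each, keeping the side means that they stayed uncalled. The losses were all among the called features, 3 at rank 52 and 4 at rank 145. Alternatives in which a feature was not tested are not among the 107. Some settings were added after seeing the data. Among them were the sum without rank 52 or the 3 features called lower, without rank 1 in the denominator, and of normalised counts. The floor of 3 counts for overlap, and bounds and spreads without a library, were added then too. The cause of these changes was not tested. No paired analysis was made, since the labels give no pairing of wild-type with heterozygous mice. The heterozygous columns also carry no replicate number of the labels.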
